A study of Homo sapiens with 6 samples.

Results

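The genes that encode the chains of collagen, the main fibrous protein of the extracellular matrix, were examined in UE7T-9 cells and in the UE7T-9 SRRM4 KO line. They were taken from the gene count table as the protein-coding genes whose symbol is COL, a number, A and a number, which gave 44 of 58735 genes. UE7T-9 is a mesenchymal stem cell (MSC) line from human bone marrow, and SRRM4 encodes a serine/arginine repetitive matrix protein known as a regulator of alternative splicing in neurons. The 3 control libraries came from UE7T-9 cells labelled WT. The 3 SRRM4 KO libraries came from UE7T-9 cells transduced with a lentiviral CRISPR vector carrying an SRRM4 guide RNA. These cells were selected with puromycin and cloned from 1 cell per well. Both groups were cultured in D-MEM, and the labels give no treatment or time point. The KO line is 1 clone, so the knockout and the properties of that clone cannot be told apart. Nor can transduction and puromycin selection, where the WT cells did not go through them. The study describes the SRRM4 protein of the KO line as reduced and not lost. The labels do not say whether the libraries of a group came from separate cultures, so the p-values measure only the spread between these samples, which may be technical.

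A collagen molecule is a trimer in which each chain winds around its partners in a triple helix. Fibrillar collagens (types I, II, III, V, XI, XXIV and XXVII) assemble into the banded fibrils of bone, tendon and skin, type IV forms the network of basement membranes, and the FACITs (fibril-associated collagens with interrupted triple helices) sit on the surface of fibrils. Transmembrane collagens (XIII, XVII, XXIII and XXV) span the cell membrane. In bone marrow stroma and bone, type I collagen is the bulk of the organic matrix.

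The triple helix requires glycine, encoded by GGN codons, at 1 position in 3 along the chain, which leaves a repeat in the messenger RNA. Stretches of 45 coding bases from GENCODE release 29 transcripts are shown because they hold this repeat in genes of the 4 classes on which the results turn; capitals mark the GG of the repeating codon, and each stretch holds 5 repeats of 9 bases. The COL5A1 stretch is coding bases 1675 to 1719, that of COL4A1 is 127 to 171, that of COL16A1 is 3034 to 3078 and that of COL13A1 is 1735 to 1779.
COL5A1 (fibrillar): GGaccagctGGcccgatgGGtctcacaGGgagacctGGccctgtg
COL4A1 (basement membrane): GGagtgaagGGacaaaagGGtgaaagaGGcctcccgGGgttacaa
COL16A1 (FACIT): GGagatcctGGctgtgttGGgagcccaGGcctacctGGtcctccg
COL13A1 (transmembrane): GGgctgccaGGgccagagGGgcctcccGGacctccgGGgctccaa

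The longest unbroken run of this repeat had a median of 338 repeats over the 11 fibrillar genes and ranged from 216 in COL24A1 to 343 in COL3A1. In the 6 type IV genes it ranged from 38 to 66 repeats, in the 10 FACIT genes from 32 to 113, and in the 4 transmembrane genes from 43 to 56. No other class reached the lowest value of the fibrillar genes, while the ranges of the other 3 classes overlapped. The remaining members are the 5 genes of type VI, which forms beaded filaments, the 3 short-chain genes (VIII and X), the 2 multiplexins (XV and XVIII), COL7A1 of the anchoring fibril, and COL26A1 and COL28A1, which were kept apart as other.

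The libraries held 21496117 to 23868323 counts. SRRM4 itself had 0 counts in all 6 libraries, so its RNA gives no check of the genotype. The MSC surface markers NT5E, ENG and THY1 were all present, THY1 lower in the KO line (log2 fold change -2.43, adjusted p = 3.63e-10, edgeR), whereas PTPRC of leukocytes, CDH5 and PECAM1 of endothelium and EPCAM and KRT5 of epithelium had at most 3 counts in any library. Other markers of these lists were counted: CD14 had 324 to 392 counts in a library, CD34 66 to 93, VWF 18 to 46 and CDH1 9 to 39, and none of these was called. HLA-DRA was not tested and had 7, 11 and 9 control counts against 0, 4 and 1 KO counts, without overlap. Control replicate 1 had counts on 22403 genes against 20127 to 20674 in the other 5 libraries, and without it all 16 calls given below were also made. Levels are given as CPM, counts scaled to a fixed library total with library sizes adjusted by the trimmed mean of M-values (TMM), and levels of different genes are compared only as TPM, which also divide by gene length.

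Collagen RNA was a smaller part of the library in the SRRM4 KO line. The 44 genes took 5.35%, 5.76% and 5.84% of all counts in control replicates 1 to 3 and 2.57%, 2.50% and 2.26% in KO replicates 1 to 3, that is 5.65% ± 0.258 against 2.44% ± 0.159 (SD, n = 3). Every KO library lay below every control library, and the ratio of the means was 2.31. No test was made on this sum. Counting error is small at this depth: the 95% exact binomial intervals reached from 5.35% to 5.36% in control replicate 1 and from 2.26% to 2.27% in KO replicate 3, and they cover counting error only. COL1A1, COL1A2 and COL3A1, the chains of types I and III, made up 4.42% ± 0.214 of control counts and 1.78% ± 0.114 of KO counts. The other 41 genes together went from 1.23% ± 0.0489 to 0.659% ± 0.0450, a ratio of 1.87, so the smaller share was not limited to these leading chains. In bulk RNA, fewer cells that express a gene and less RNA per cell cannot be told apart.

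**Figure D1:**
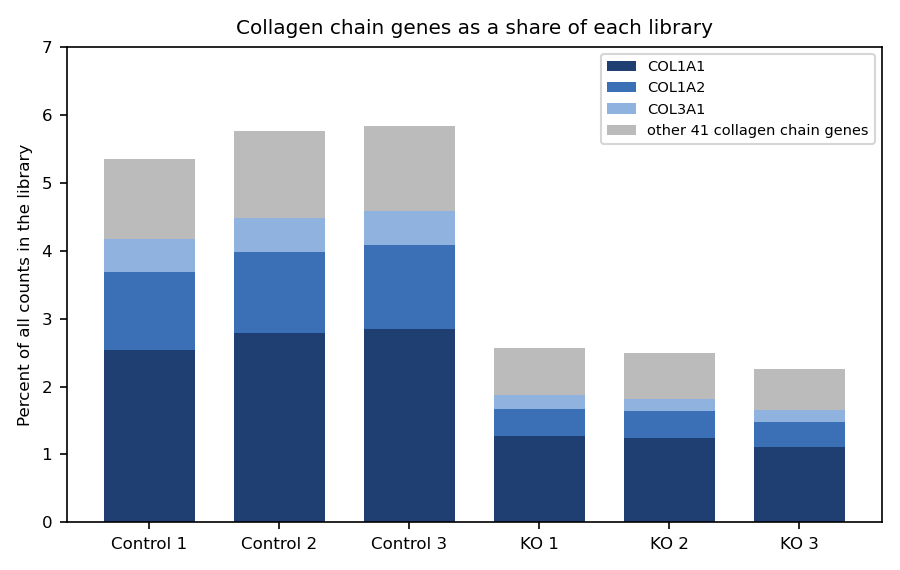
Stacked bars show the percent of all counts in each of the 6 libraries that fell on COL1A1, COL1A2, COL3A1 and the other 41 collagen chain genes. The 3 control bars reach 5.35% to 5.84% and the 3 SRRM4 KO bars 2.26% to 2.57%.

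The make-up of the collagen RNA by class, per unit of gene length, was dominated by fibrillar genes in both groups. They made up 85.7%, 85.3% and 85.7% of the collagen total in the control libraries and 80.9%, 80.9% and 81.3% in the KO libraries. Type VI was next, at 6.79% ± 0.263 in control and 8.83% ± 0.412 in the KO line (SD, n = 3). With counts not divided by length it came after basement membrane genes, at 5.30% and 5.95% against 6.48% and 7.34%, and its difference was 0.649 percentage points. Since the shares add up to the whole, a lower fibrillar share goes with higher shares elsewhere. Basement membrane genes held 4.04% ± 0.130 and 4.62% ± 0.0243, FACIT genes 2.17% ± 0.240 and 2.95% ± 0.117, and short-chain genes 1.14% ± 0.0471 and 1.73% ± 0.148. The transmembrane class was the smallest of these at 0.0143% ± 0.00377 of control collagen and reached 0.257% ± 0.00420 in the KO line. In each of these classes the KO libraries lay above the control libraries, except fibrillar, where they lay below. COL1A1 alone was 47.8% of the collagen total per length in control and 48.4% in the KO line, while COL1A2 went from 18.4% to 13.5% and COL3A1 from 12.6% to 10.7%.

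Gene by gene, 32 of the 44 members had enough counts to be tested, and 12 had not. A gene was called where edgeR's quasi-likelihood test gave a Benjamini-Hochberg adjusted p under 0.05 and the log2 fold change (KO over control) lay beyond 1 in size. Of the 32, 15 were called lower, 1 was called higher and 16 were not called, which is 50.0% called. Over all 15341 genes tested, 12.6% were called, 7.14% lower and 5.45% higher. The median log2 fold change of the 32 was -0.92, against -0.0052 over all genes, and 26 of the 32 were below 0. The groups did not overlap for 27 of them, 25 with the KO libraries lower and 2 with them higher, whereas 51.8% of all genes did not overlap (25.8% KO lower, 25.9% KO higher). COL6A6, COL21A1, COL11A1 and COL9A3 passed the filter on low counts only through their control libraries, so these had to be lower to differ. All 4 are among the 26 below 0 and among the 25 with the KO libraries lower. Without these 4, 11 of 28 tested members were called lower and 1 higher, with a median of -0.75. These 28 still hold COL25A1, which passed the filter through its KO libraries. When a minimum of 10 counts in all 6 libraries was required, 27 members were tested and 13 called, 12 of them also called above.

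**Figure D2:**
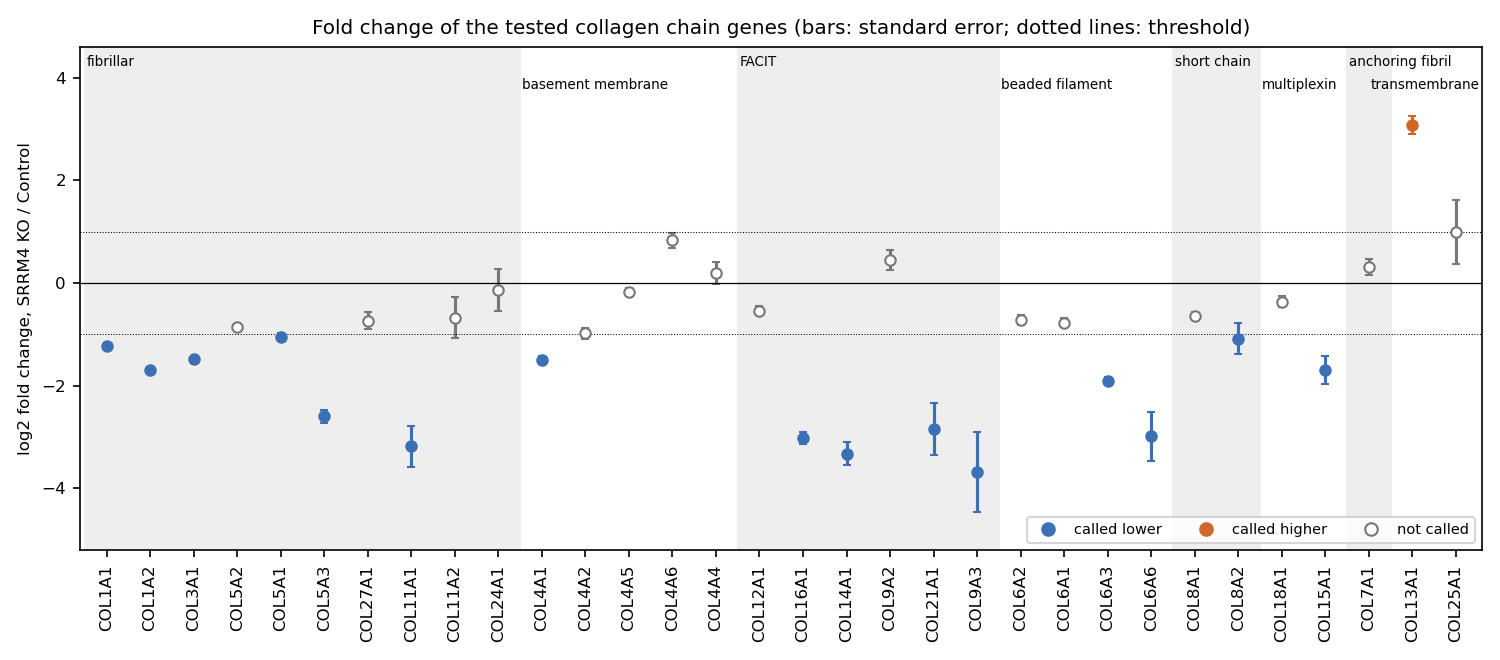
The log2 fold change (SRRM4 KO over control) of each of the 32 tested collagen chain genes is plotted by class, with its standard error as a bar and dotted lines at the threshold of 1. Filled points are the 15 genes called lower and the 1 called higher, COL13A1 at 3.08; open points are the 16 not called.

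Among the 11 fibrillar genes, 10 were tested and 6 were called lower. All 10 fitted values lay below 0, with a median of -1.14. Without COL11A1, which passed the filter only through control, 5 of 9 were called and the median was -1.05. COL1A1 (ENSG00000108821, chromosome 17, 50183289 to 50201632 in GRCh38), the alpha 1 chain of type I, stood at 25986, 28301 and 29261 CPM in control replicates 1 to 3 and at 12555, 12125 and 10893 CPM in KO replicates 1 to 3. Every KO library lay below every control library, and the fold change was -1.23 on the log2 scale (SE 0.059, adjusted p = 4.36e-10). COL1A2, its alpha 2 partner, was at 11759.9, 12219 and 12568 CPM in control and 3887, 3888 and 3511 CPM in the KO line. Its KO libraries were all lower, with a larger fitted change than that of COL1A1 (-1.70, SE 0.056, adjusted p = 1.43e-11). COL3A1, whose chain forms type III homotrimers that mix into type I fibrils, had 4953, 5077 and 5238 CPM in control against 1901, 1836 and 1731 CPM in the KO libraries. The groups were again apart (-1.48, SE 0.059, adjusted p = 6.57e-11). Of 5 osteoblast markers, SP7 had 0 counts and BGLAP and IBSP at most 3. ALPL was called lower, at a mean of 22.4 CPM in control and 10.2 CPM in the KO line. RUNX2 was higher in every KO library, at means of 14.7 and 22.5 CPM (0.61, edgeR adjusted p = 0.00226), under the fold threshold. The summed level of the 5 was 34.9 to 39.6 CPM in control and 30.7 to 34.1 CPM in the KO line. Their part in the values of the type I genes was not tested.

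Type V collagen lies in the core of type I fibrils and limits their diameter, and its 3 genes differed in size of change. COL5A1 was at 1455, 1689.7 and 1663 CPM in control and at 821, 818 and 687 CPM in the KO line. The groups did not overlap and the fold change of -1.05 (SE 0.083, adjusted p = 1.05e-07) lay close to the threshold: without KO replicate 3 it was -0.98 and COL5A1 was no longer called. COL5A2 had 1829, 1847 and 1785 CPM in control and 1039, 1003 and 958 CPM in the KO line. Its KO libraries were all lower, but at -0.86 (SE 0.062, adjusted p = 3.82e-08) it stayed under the fold threshold. COL5A3, a chain of narrower distribution, had 72.3, 84.9 and 83.1 CPM against 15.3, 12.8 and 11.6 CPM, the steepest change of the type V genes (-2.60, SE 0.12, adjusted p = 3.76e-10). Its 3 KO values lay far below the lowest control value.

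COL11A1, the alpha 1 chain of type XI, a fibril-core collagen of cartilage, had 71, 67 and 74 counts in the control libraries and 8, 6 and 10 in the KO libraries. Every KO count was below every control count, and the fitted change was -3.18 (SE 0.40, adjusted p = 1.15e-05). At a mean of 3.23 CPM in control it was a minor fibrillar gene, ranked 26 of 44 by TPM. Of the chondrocyte markers, 3 of 5 had enough counts to be tested, ACAN was called lower and SOX9 higher. The summed level of the 5 was 151 to 168 CPM in control and 22.6 to 25.7 CPM in the KO line. Most of the control sum was ACAN, at a mean of 147 CPM. SOX9 rose from a mean of 5.96 to 18.6 CPM, and MATN3, not called, went from 7.91 to 5.06 CPM. ACAN, the cartilage proteoglycan, went to 0 counts in all 3 KO libraries, COMP had at most 5 counts and MATN1 at most 6 in any library, and the part of such cells in the result for COL11A1 was not tested. COL27A1 (-0.73, adjusted p = 0.00206, under the fold threshold), COL11A2 (-0.67, 95% interval -1.51 to 0.16) and COL24A1 (-0.14, interval -1.02 to 0.75) were not called, and for COL24A1 the groups overlapped. COL2A1, the cartilage fibril chain, had at most 8 counts in a library and was not tested.

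**Figure D3:**
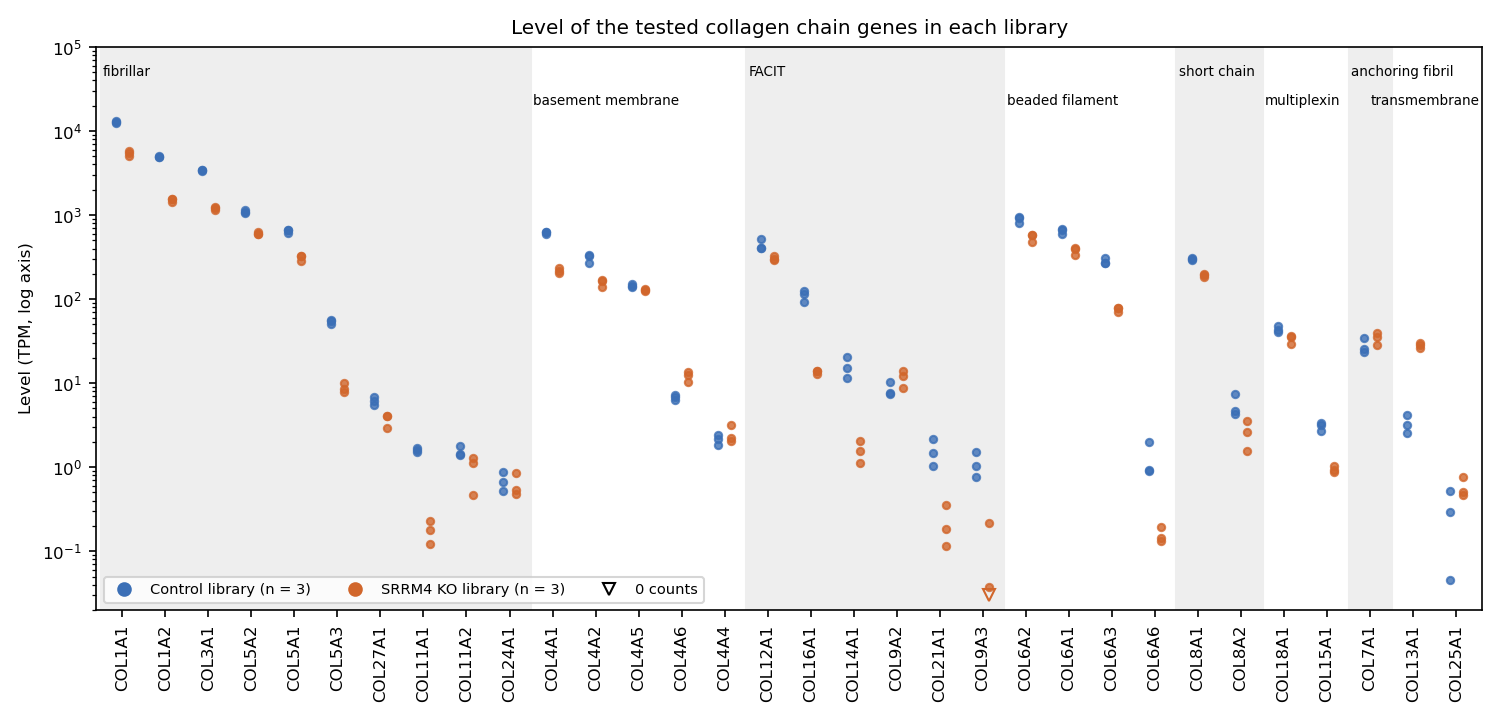
Each point is the level of a tested collagen chain gene in 1 library (TPM, log axis), with 3 control and 3 SRRM4 KO libraries and genes grouped by class; a triangle marks a library with 0 counts. COL1A1, COL1A2 and COL3A1 are highest in both groups, and the KO points of COL5A3, COL14A1, COL16A1 and COL11A1 sit well below their control points, while those of COL13A1 sit above.

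By level per length, COL1A1 (12809 ± 432 TPM in control, SD, n = 3), COL1A2 (4934 ± 68.8), COL3A1 (3377 ± 55.9) and COL5A2 (1105 ± 41.9) were the leading genes in that order in the control line, and each stood apart from the next by more than its spread. The same 4 genes led in the KO line at 5454 ± 341, 1523 ± 71.1, 1209 ± 45.3 and 606 ± 19.1 TPM. Ranks 6 to 7 in control, COL5A1 (646 ± 33.8 TPM) and COL6A1 (644 ± 47.4 TPM), did not differ beyond their spread, nor did COL4A1 (620.2 ± 19.9 TPM), next in order. In the KO line COL6A1 (378 ± 38.1 TPM) ranked 6, with COL5A1 (313 ± 27.6 TPM) after it and COL12A1 (305 ± 14.9 TPM), of the FACIT class, at 8.

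The type IV genes of the basement membrane lie in head-to-head pairs, and both genes were tested in the pairs COL4A1 with COL4A2 and COL4A5 with COL4A6. Of 6 genes, 5 were tested, 1 was called lower and none higher, with a median of -0.17. COL4A1 (ENSG00000187498, chromosome 13, 110148963 to 110307233, minus strand), whose chain joins that of COL4A2 in the common type IV trimer, had 1882, 2089.9 and 2099.6 CPM in control and 761, 717 and 666 CPM in the KO line. All KO values were under all control values (-1.502, SE 0.072, adjusted p = 4.66e-10). COL4A2 (ENSG00000134871, chromosome 13, 110305812 to 110513209, plus strand) had 1108, 1440.4 and 1408 CPM against 724, 698 and 582 CPM. It too was lower in each KO library, but at -0.98 (SE 0.10, adjusted p = 1.72e-06) it missed the fold threshold by a small margin and was called under 5 of the alternatives tried. The annotated spans of the 2 genes overlap by 1422 bases on opposite strands, and in a non-stranded library reads from that stretch cannot be assigned by strand.

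The start regions of the pairs are shown because the windows of paired genes share DNA. The windows are those of RefSeq on GRCh38.p14, reaching from 250 bases before to 50 after the start site, and were matched by symbol for 32 of the 44 members. The window of COL4A2 is chr13:110307034-110307333 on the plus strand, and capitals mark the 226 bases that also lie in the window of COL4A1, whose start site in RefSeq is 127 bases away. The window of COL4A5 is chrX:108439588-108439887 on the plus strand, and capitals mark the 121 bases shared with a window of COL4A6, whose start site is 380 bases away.
COL4A2: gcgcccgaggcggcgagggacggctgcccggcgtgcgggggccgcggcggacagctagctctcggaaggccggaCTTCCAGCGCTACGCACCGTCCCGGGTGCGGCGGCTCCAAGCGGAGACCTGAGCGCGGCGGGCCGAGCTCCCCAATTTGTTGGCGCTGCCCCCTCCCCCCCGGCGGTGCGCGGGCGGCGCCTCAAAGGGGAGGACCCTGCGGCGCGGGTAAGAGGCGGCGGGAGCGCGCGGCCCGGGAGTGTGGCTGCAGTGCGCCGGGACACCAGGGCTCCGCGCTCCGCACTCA
COL4A5: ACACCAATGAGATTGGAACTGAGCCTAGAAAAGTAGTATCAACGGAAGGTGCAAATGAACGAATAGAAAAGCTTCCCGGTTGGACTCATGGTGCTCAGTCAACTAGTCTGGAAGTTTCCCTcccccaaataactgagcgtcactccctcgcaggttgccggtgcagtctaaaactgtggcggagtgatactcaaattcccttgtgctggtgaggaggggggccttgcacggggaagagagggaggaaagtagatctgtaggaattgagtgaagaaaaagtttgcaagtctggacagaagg

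The letters CCAAT, on either strand, occurred in 14 of the 44 windows of these 32 members, at least 1 each of COL4A1, COL4A2, COL4A5 and COL4A6 among them, and in 34.6% of the 35116 windows of all genes. COL4A3 and COL4A4 had no match. In the COL4A2 and COL4A5 windows printed above, the matches lie in the capitals, so paired windows count the same bases. TATAAA, searched the same way, occurred in 8 of the 44 windows and in 11.5% of all windows. These are matches of letters and not shown to be sites in these cells. No window was matched for COL14A1, COL1A1, COL1A2, COL20A1, COL22A1, COL2A1, COL3A1, COL5A2, COL6A1, COL6A5, COL8A1 and COL9A3.

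The X-linked pair, COL4A5 and COL4A6, encodes chains of other type IV trimers, among them that of the kidney filter for COL4A5. COL4A5 had 382, 376 and 387 CPM in control and 349, 343 and 328 CPM in the KO line. Its groups did not overlap, yet the fold change was -0.17 (SE 0.071) and did not pass the test (adjusted p = 0.0721). COL4A6, by contrast, was one of the few members with a fitted value above 0: 12.7, 15.2 and 14.3 CPM in control and 26.0, 28.4 and 20.8 CPM in the KO line. Every KO library was higher than every control library (0.83, SE 0.14, adjusted p = 2.38e-04), but the change stayed under the fold threshold. COL4A4, an alpha 4 chain, was at 4.82 ± 0.759 and 5.51 ± 1.34 CPM (SD, n = 3) with overlapping groups (0.20, 95% interval -0.28 to 0.67), and its neighbour COL4A3 had at most 18 counts and was not tested.

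Among the FACIT genes, 4 of 6 tested genes were called lower and none higher, with a median of -2.93. COL21A1 and COL9A3 passed the filter only through control, and without them 2 of 4 were called and the median was -1.78. COL16A1 (ENSG00000084636, chromosome 1, 31652247 to 31704319), a FACIT found beside fibrils and microfibrils, had 182, 257 and 241 CPM in control and 29.1, 29.2 and 25.7 CPM in the KO line. The KO values were close to each other and far below the control values (-3.02, SE 0.13, adjusted p = 1.02e-10), an 8.10-fold lower level. COL14A1, which binds the fibril surface and is known in tendon and skin, was at 38.2, 22.5 and 29.3 CPM in control and 3.00, 2.17 and 3.86 CPM in the KO line. Control replicate 1 was the highest, and no KO library came near the lowest control (-3.32, SE 0.22, adjusted p = 1.94e-08).

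The other FACITs called lower had few counts. COL21A1 had 72, 51 and 37 counts in the control libraries and 4, 7 and 12 in the KO libraries, which did not overlap (-2.84, SE 0.50, adjusted p = 3.25e-04). COL9A3, a chain of cartilage type IX that overlaps TCFL5 in the annotation, had 17, 36 and 25 control counts and 0, 1 and 5 KO counts. The fitted -3.68 (SE 0.78, adjusted p = 0.00149) rests on counts near 0 and was -5.48 without KO replicate 3, so its size depends on that library. Of the chondrocyte markers described beside COL11A1, ACAN was lower as well and SOX9 was higher, and their part in this result was not tested. COL12A1, the most abundant FACIT here and a stabiliser of fibrils under load, had 1383, 1134 and 1141 CPM in control and 893, 818 and 814 CPM in the KO line. All KO libraries were lower (-0.53, SE 0.082, adjusted p = 9.04e-05), which did not reach the fold threshold. COL9A2 overlapped between groups at 7.92 ± 1.52 and 10.9 ± 2.52 CPM (SD, n = 3; 0.45, adjusted p = 0.0775).

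COL22A1, a FACIT of tissue junctions, was too low to be tested, with 16, 7 and 14 control counts and 0 in each KO library. Set against a floor of 3 counts in a library, it was at least 4.29-fold lower in the KO line, and it was called lower where no filter was used, in DESeq2 and in 4 of the fits that left out a library. With no count in the KO line it could pass a filter only through control, so it could only be called lower. COL19A1 had at most 27 counts, COL20A1 at most 1, and COL9A1 none.

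Of the transmembrane collagens, 1 of 2 tested genes was called, and it was the only member called higher. COL13A1 (ENSG00000197467, chromosome 10, 69801867 to 69964275), a transmembrane collagen of cell adhesion sites and the neuromuscular junction, had 70, 118 and 95 counts in control replicates 1 to 3 and 875, 905 and 738 in KO replicates 1 to 3. As CPM these were 3.23, 5.47 and 4.25 and 39.2, 37.1 and 33.5. The lowest KO library was several times the highest control library, and the fold change was 3.08 (SE 0.17, adjusted p = 2.19e-09), an 8.48-fold higher level. Its rank by TPM among the 44 genes moved from 23 to 16. The value lay between 2.91 and 3.29 over the alternatives tried, and COL13A1 was called in each. COL25A1, known in brain and in motor axon growth, had 12, 22 and 2 control counts and 20, 24 and 32 KO counts, with overlapping groups (1.00, 95% interval -0.32 to 2.32, adjusted p = 0.217). Its value was 1.78 without control replicate 2 and 0.49 without control replicate 3. COL17A1, of the hemidesmosomes of skin, had at most 14 counts and COL23A1 at most 3, and neither was tested.

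The beaded filaments of type VI surround cells, and its main trimer joins the chains of COL6A1, COL6A2 and COL6A3. COL6A3, the longest of these chains, had 1305, 1196 and 1178 CPM in control and 346, 339.6 and 298 CPM in the KO line. It was called lower with no overlap (-1.90, SE 0.079, adjusted p = 1.02e-10). COL6A1 had 674, 812 and 802 CPM in control and 477, 476 and 389.9 CPM in the KO line. COL6A2 had 928, 1126 and 1140.2 CPM in control and 690.0, 688 and 564 CPM in the KO line. Both were lower in every KO library, COL6A1 by 0.77 and COL6A2 by 0.72 on the log2 scale (adjusted p = 9.68e-06 and 2.04e-05), under the fold threshold. COL6A6, an alternative to the alpha 3 chain, had 90, 42 and 45 control counts and 7, 7 and 9 KO counts. The KO counts were all below the control counts, and it was called lower (-2.99, SE 0.47, adjusted p = 1.23e-04). It passed the filter only through control, so it had to be lower to differ. Of 4 tested type VI genes, 2 were called, with a median of -1.34. Without COL6A6, 1 of 3 was called and the median was -0.77. COL6A5 had no counts.

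Of the tested short-chain and multiplexin genes, COL8A2 and COL15A1 were called lower and COL8A1 and COL18A1 were not called. COL8A1, the more abundant type VIII gene, of vessel walls and the corneal membrane, had 619, 628 and 619 CPM in control and 410.4, 381 and 406 CPM in the KO line. The groups were apart, but -0.64 (SE 0.069, adjusted p = 2.73e-06) was under the fold threshold. COL8A2 had 94, 105 and 173 control counts and 36, 89 and 59 KO counts. The highest KO count was near the lowest control count, and the call (-1.09, SE 0.30, adjusted p = 0.00941) was lost without control replicate 3 (-0.79, adjusted p = 0.0743) and without KO replicate 1 (-0.84, adjusted p = 0.0415). COL15A1, a multiplexin near basement membranes, had 97, 109 and 90 control counts and 29, 37 and 30 KO counts. Its groups were well apart and it was called lower (-1.69, SE 0.27, adjusted p = 1.28e-04). COL18A1, the source of endostatin, was at 81.7 ± 8.89 and 63.7 ± 8.05 CPM (SD, n = 3; -0.36, adjusted p = 0.0169) and was not called, and part of its span overlaps SLC19A1. COL7A1, of the anchoring fibrils of skin, was at 67.7 ± 15.4 and 84.1 ± 14.1 CPM with overlapping groups (0.31, 95% interval -0.0013 to 0.63). COL10A1 and COL26A1 had at most 4 counts and COL28A1 at most 2, and these were not tested.

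Chains that share a trimer or a mixed fibril were then compared within each library, as the ratio of their counts per length, which needs no scaling between libraries. With 3 libraries against 3, the exact two-sided permutation test cannot go below p = 0.1, and over the 9 pairs tested the smallest adjusted p was 0.129, so no pair could pass the threshold. The ratio of COL1A1 to COL1A2 was 2.51, 2.63 and 2.65 in control and 3.67, 3.54 and 3.52 in the KO line. All KO ratios were higher than all control ratios, by 0.46 on the log2 scale; the type I trimer itself is known to hold 2 alpha 1 chains and 1 alpha 2 chain. COL5A2 to COL1A1 was also higher in each KO library, by 0.37, and COL3A1 to COL1A1 was lower in each, at -0.25. For COL4A1 to COL4A2 the ratio was 2.22, 1.90 and 1.95 in control and 1.38, 1.34 and 1.5 in the KO line, without overlap. The difference for this pair was -0.52 on the log2 scale. COL4A5 to COL4A6, also a head-to-head pair, differed by -0.99, again without overlap.

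In type VI, the ratio of COL6A1 to COL6A2 was 0.732, 0.727 and 0.709 in control and 0.696, 0.697 and 0.697 in the KO line. The difference of -0.05 was the smallest of the pairs, although the groups did not overlap. COL6A3 to COL6A1 was 0.527, 0.401 and 0.400 in control and 0.198, 0.194 and 0.208 in the KO line, a difference of -1.13 and the largest of the 9 pairs. The pairs with overlapping groups were COL5A1 to COL5A2 (-0.18, exact permutation p = 0.2) and COL8A1 to COL8A2 (0.48, exact permutation p = 0.4). The latter difference was 0.145 without KO replicate 1, 0.228 without control replicate 3 and 0.787 without KO replicate 2. COL11A1 to COL5A1 was not tested because COL11A1 had under 10 counts in a KO library.

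**Figure D4:**
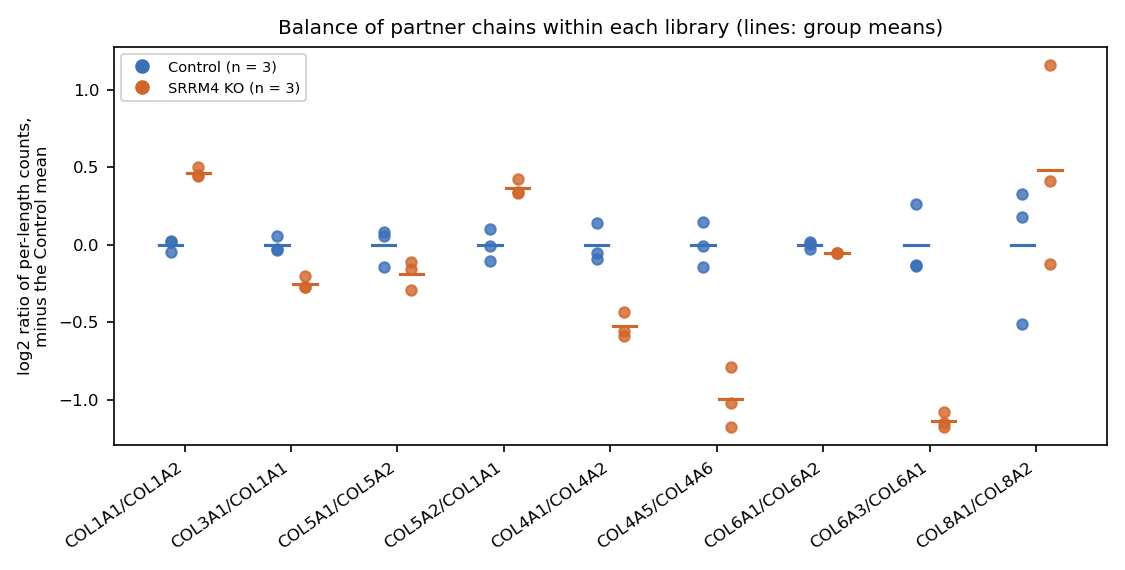
For each of the 9 pairs of partner chains tested, the log2 ratio of per-length counts in each library is plotted relative to the control mean of that pair, with lines at the group means. The 2 groups are apart for 7 pairs, with COL6A3 to COL6A1 the farthest below at -1.13 and COL1A1 to COL1A2 above at 0.46.

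Fold changes of the genes around 6 members, named after the values were seen, were read from the same fit. The 92 other tested genes within 5 Mb of COL1A1 had a median log2 fold change of 0.49, against -1.23 for COL1A1. Around COL1A2 the median of 54 genes was -0.31, around COL13A1 that of 81 genes was 0.03, and around COL16A1 that of 122 genes was 0.13. Around COL3A1 the median of 31 genes was -0.30 and around COL4A6 that of 40 genes was 0.30. Of these 6 windows, those of COL1A2, COL13A1, COL3A1 and COL4A6 had a median on the member's side of 0 and those of COL1A1 and COL16A1 had not. This tally covers only the members picked. Around COL4A5, beside COL4A6 and not among the 6, the median of 35 genes was 0.32, against -0.17 for COL4A5. Of members that lie close together, COL3A1 was at -1.48 and COL5A2 at -0.86, 19149 bases apart on chromosome 2. COL6A1 at -0.77 and COL6A2 at -0.72, 93046 bases apart on chromosome 21, had nearly the same value.

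Genes that fold, export, trim, crosslink or bind collagen were compared in the same fit, in which 12.6% of all genes were called. Of the 23 genes for hydroxylases, chaperones and export, all were tested and none was called, with a median log2 fold change of 0.08. Members named here after their values were seen are P4HB, a subunit of the prolyl 4-hydroxylase that stabilises the helix (0.93, adjusted p = 3.64e-08), and SERPINH1, the collagen chaperone HSP47 (-0.79, adjusted p = 1.38e-06), which lay on opposite sides of 0. The summed level of the 23 genes was 5422 to 5746 CPM in control and 6510 to 6607 CPM in the KO line. Within it P4HB rose from a mean of 880 to 1678 CPM, and 9 of the 23 fitted values lay below 0. Without the fold threshold, 12 of the 44 tested genes over the 4 lists passed as higher and 15 as lower, against 41.6% of all genes in either direction. Of the 8 procollagen proteinases and their enhancers, 3 were called lower and none higher (median -0.35). The 3 include TLL2, whose direction was limited by the filter, as given below. PCOLCE, an enhancer of the removal of the C-propeptide, had 147, 160.3 and 164 CPM in control and 16.1, 16.2 and 14.7 CPM in the KO line. It was the largest change of that list, without overlap (-3.32, SE 0.098, adjusted p = 3.13e-12). ADAMTS2, which removes the N-propeptide of types I and III, fell from 295 ± 6.29 to 75.6 ± 3.90 CPM (SD, n = 3; -1.97, adjusted p = 1.02e-10). TLL2, a proteinase related to BMP1, had 57, 40 and 59 control counts and 16, 9 and 21 KO counts (-1.80, adjusted p = 0.00330). It passed the filter on low counts only through its control libraries, so it had to be lower to differ. BMP1 itself, the main C-proteinase, was at -0.36 and not called.

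Of the 5 lysyl oxidase genes, whose products crosslink collagen, 2 were called lower and none higher (median -0.64). LOX had 1484, 1257 and 1305 CPM in control and 509.7, 481 and 536 CPM in the KO line, with all KO libraries lower (-1.41, SE 0.078, adjusted p = 2.25e-09). LOXL4 had 54, 60 and 89 counts against 22, 14 and 10 (-2.19, adjusted p = 3.87e-04). Of the 10 collagen receptors, 8 were tested, 2 were called higher and 1 lower (median -0.05). ITGA11, the integrin alpha chain that binds fibrillar collagen in mesenchymal cells, fell from 426 ± 15.4 to 179 ± 7.64 CPM (SD, n = 3; -1.25, adjusted p = 5.74e-09). ITGA2, whose integrin also binds fibrillar collagen, rose from 11.6 ± 2.00 to 29 ± 1.68 CPM (1.33, adjusted p = 2.49e-06). ITGA10, an integrin chain known in cartilage, rose from 10.5 ± 1.62 to 23.5 ± 5.70 CPM (1.16, adjusted p = 8.37e-05), but was at 0.95 and not called without KO replicate 2. In a test against the fold threshold itself neither ITGA2 nor ITGA10 was called. LAIR1 had no counts and GP6 at most 2, and both were untested.

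**Figure D5:**
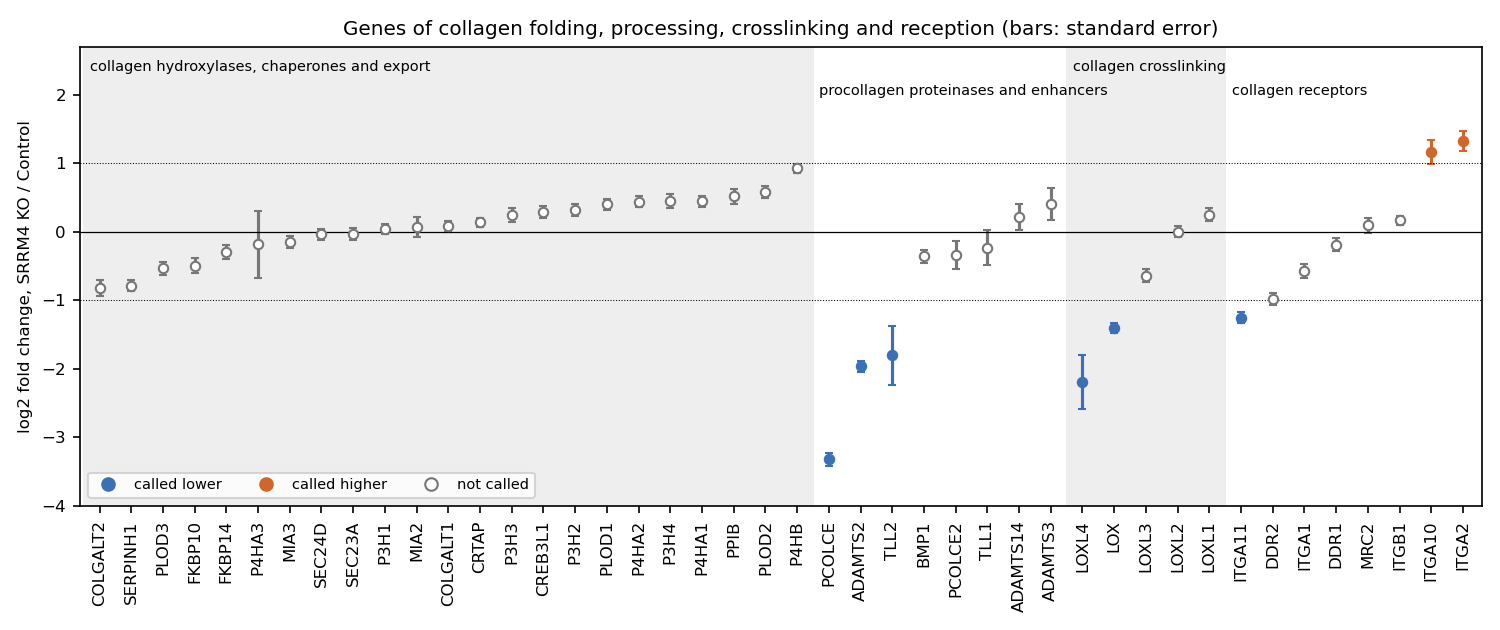
The log2 fold change (SRRM4 KO over control) of the 44 tested genes of collagen folding and export, processing, crosslinking and reception is plotted with its standard error as a bar. The 23 folding and export genes lie inside the threshold of 1, and PCOLCE is lowest at -3.32.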

How the data were processed

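The authors made non-stranded mRNA-seq libraries, 3 of control and 3 of SRRM4 KO cells, and deposited the raw read count of each of 58735 genes with no normalization. HISAT2 2.0.5, featureCounts 1.5.0-p3 and DESeq2 are named in the submitters' processing notes, and the build and annotation are not given in the sources used here. All 58735 genes had the start and end of GENCODE release 29 (GRCh38). Because the handling of multi-gene reads is not stated, overlapping genes are uncertain. Groups and replicates were taken from the labels.

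The whole table was tested with edgeR 4.0.16 (R 4.3.3): TMM, filterByExpr, a prior count of 0.125 and the quasi-likelihood test, adjusted by Benjamini-Hochberg over 15341 genes. Calls needed an adjusted p under 0.05 with a log2 fold change over 1 in size. TPM used the gene length of the table. Lower bounds used a floor of 3 counts, which is 0.123 to 0.139 CPM. Values in each library are given for members that were called or had a mean of at least 100 CPM, and of the other lists at most 3 called genes per direction. Other members are given as fold changes, ranges or highest counts, except COL4A6, COL25A1 and COL22A1, whose library values were added after they were seen. The 8 noncoding rows with collagen symbols had at most 4 counts and are not described. Scripts were tested on simulated data. The members and the lists were chosen with earlier results of these data known. The alternatives tried were DESeq2 1.42.0, its size factors and upper-quartile normalization in edgeR, a filter of 10 counts in all libraries or none, blocking on the replicate number, omission of each library, no fold threshold and a test against it (glmTreat). For class shares, counts not divided by length were also used.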

Additional observations from a re-analysis of the deposited data

How the results depend on the processing

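The calls of 15 collagen chain genes as lower and 1 as higher came to 15 to 16 lower and 1 higher with other normalizations, with no filter and in DESeq2. With at least 10 counts in every library 12 were called lower and 1 higher, 12 of these 13 among the original 16. Leaving out 1 library gave 14 to 17 called lower and 1 called higher, and glmTreat gave 13 and 1. Without the fold threshold the counts were 23 lower and 2 higher of 32 tested, where 41.6% of all 15341 genes passed in either direction. COL4A2 was called with upper-quartile normalization (-1.01), with at least 10 counts in every library (-1.001), and without control replicate 1 (-1.09), KO replicate 1 (-1.05) or KO replicate 2 (-1.02). Over the libraries left out, COL24A1 ranged from -0.45 to 0.087, changing sign without control replicate 3 (0.087) or KO replicate 3 (0.021), and COL4A4 from -0.030 (without KO replicate 2) to 0.30; the cause was not tested. Of the genes for biosynthesis and receptors, leaving out a library gave 1 to 2 called higher and 6 to 7 lower, glmTreat gave 0 higher, and no fold threshold gave 12 higher and 15 lower; these alternatives were chosen after seeing the data.

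The difference in collagen share of the library, -3.21 percentage points, was -0.574 without COL1A1, COL1A2 and COL3A1, and lay between -3.35 and -3.11 when a library was left out. With counts not divided by gene length, the differences in class share were -3.73 percentage points for fibrillar, 0.857 for basement membrane, 1.12 for FACIT, 0.150 for transmembrane, 0.649 for beaded filament and 0.233 for the anchoring fibril gene, all in the direction of the values per length. Leaving out the 4 members that passed the filter only through control, chosen after seeing the data, turned no class median.

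With the replicate number as a block, 15 collagen genes were called lower and 1 higher, all 16 also called without it. The numbers did not pair the samples: the correlations of same-numbered libraries were -0.05, 0.08 and -0.05, and control replicate 1 correlated best with KO replicate 3. For the chain ratios the block leaves the differences as they are, for example 0.46 for COL1A1 to COL1A2, and the exact sign-flip test on 3 pairs cannot go below p = 0.25. The 12 untested members did not pass the filter on low counts; 42 members could be tested without a filter and 37 in DESeq2, and COL6A5 and COL9A1 had no counts.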
